A study of Mus musculus with 9 samples.

Results

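Morulae fathered by males of the 6% ethanol treatment were compared with morulae of control males, 3 libraries against 3, which are 6 of the 9 libraries in the series. Embryos of both groups were of the C57BL/6J strain and were made by in vitro fertilization, with the Nakagata protocol and CARD media. The treatment of the sire, given as 6% EtOH or as Control, is the only label that differs between the groups. The other 3 libraries, from sires given 10% EtOH, are not compared here. They entered the choice of tested genes, the scaling of the libraries, the correction for base composition and the estimate of the spread between libraries. How the ethanol was given, for how long, and how many males or embryos stand behind a library are not given in the sources used here. Nothing says that the libraries of a group came from separate males or separate fertilizations, so p-values here measure how far these samples vary, which can be technical variation alone. Because RNA was taken from whole embryos, fewer cells of a type and less RNA per cell cannot be told apart.

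A mouse morula is a ball of blastomeres that flatten against one another in compaction, become polarised, and sort into outer cells, which go on to form the trophectoderm, and inner cells, which form the embryo proper. By this stage the embryonic genome makes most of the RNA and the stored messages of the egg have largely been cleared. Cleaving embryos live mainly on pyruvate and lactate, and glucose uptake and glycolysis increase towards the blastocyst. Genomic DNA loses most of its methylation over the same days.

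In the morulae of the 6% ethanol sires, some transcripts had lower counts, scaled to library size, than in each control library. They included transcripts of several glycolytic enzymes, several enzymes of the tricarboxylic acid cycle and some endoplasmic reticulum chaperones. Among 16 tested glycolysis genes 15 lay below 0 in log2 fold change, and among 33 genes of the unfolded protein and integrated stress responses 26 did, where 50.5% of all tested genes lay below 0. Scaled counts were higher without overlap between the groups for the DNA demethylase gene Tet1, the initiation factor gene Eif4g2 and the splicing factor gene Srsf10, among others. No gene passed the test across the transcriptome. edgeR's quasi-likelihood test with Benjamini-Hochberg adjustment called 0 of 12488 tested genes (0% of them), and the smallest adjusted p was 0.799.

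At an unadjusted p under 0.05, edgeR gave 399 genes higher (3.20% of those tested) and 380 lower (3.04%). Limma voom with quality weights called 0 genes and DESeq2 called 31 (0.248%). A DESeq2 call is given below for some genes only. Other genes described below were also called by DESeq2, among them Mthfsd (adjusted p = 0.000153), Dbr1 (0.000659), Uba1y (0.00506), Herpud1 (0.00564), Efhd2 (0.00918) and Miip (0.00918). Because no adjusted p by edgeR was under 0.799, genes are described below by their value in each library. Those values are CPM, a gene's reads per 1000000 reads of its library's TMM-scaled total, listed in the order control 1, 2 and 3, then 6% ethanol 1, 2 and 3. A log2 fold change is 6% ethanol minus control, with the standard error (SE) of the fit. Groups are said not to overlap when all 3 libraries of 1 group lay above all 3 of the other, which held for 418 genes higher at 6% ethanol (3.35% of those tested) and 589 genes lower (4.72%). With 3 libraries against 3, an arbitrary order of libraries also separates some genes, in shares of about this size. Separation alone therefore does not set a gene apart. On library sizes without TMM scaling the median of all genes moved from -0.01 to -0.28, 188 genes were higher and 528 lower at an unadjusted p under 0.05 by edgeR, and the genes without overlap shifted towards lower ones in the same way (1.72% of tested genes higher and 6.59% lower, against 3.35% and 4.72%). Of the higher genes 85 had a gap of 1.5-fold or more between the nearest libraries of the groups, and of the lower genes 225 had.

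**Figure D1:**
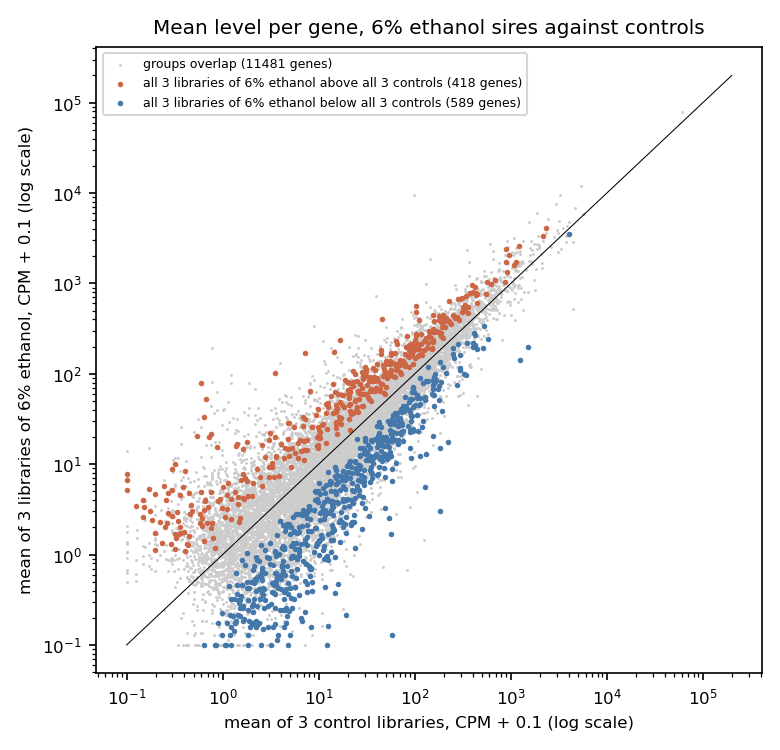
Mean CPM of each of the 12488 tested genes in the 3 control libraries (horizontal axis) and the 3 libraries of 6% ethanol sires (vertical axis), both on log scales after adding 0.1. Orange points are the 418 genes and blue points the 589 genes whose groups do not overlap, and the lower genes reach down to smaller means than the higher ones.

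Controls held 11026334, 23553941 and 6813356 counts and the 6% group 22746245, 6263465 and 10909921. Tested genes with 0 counts made up 1.497 to 7.30% of the genes in the controls, 2.81% in 6% ethanol 1, 13.5% in 6% ethanol 2 and 8.42% in 6% ethanol 3. Among 7758 genes with a mean of 10 CPM or more in a group, the highest library of a group exceeded the lowest by a median of 2.82-fold in controls and 3.89-fold at 6% ethanol. The excess was over 10-fold for 10.9% of these genes in controls and for 23.0% at 6% ethanol. The lower genes without overlap had a median over their mean levels of 9.37 CPM, and the higher ones 44.1 CPM. The header of the count column names the aligner in the files of control 2 and 6% ethanol 1, here called long-header libraries, and does not in the other 4, the short-header libraries. The long-header libraries also had the most counts. The part of depth, of genes at 0 and of header form in the results was not tested beyond the values given beside them.

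Base composition moved with the groups in part. Per 10 percentage points of transcript GC content, log2 CPM relative to the other libraries changed by 0.35 and 0.34 in control 1 and control 2 and by 0.14 in 6% ethanol 1. It changed by -0.29 in control 3, -0.73 in 6% ethanol 2 and -0.70 in 6% ethanol 3, so GC-rich transcripts were low in the last 2. The lower genes without overlap had a median GC content of 52.7%, the higher ones 45.1%, and all tested genes 49.5%. With the GC trend of each library removed, 318 genes were higher without overlap, 235 of them among the 418, and 573 were lower, 461 of them among the 589. Values with the trend removed are given below where they bear on a group of genes.

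**Figure D2:**
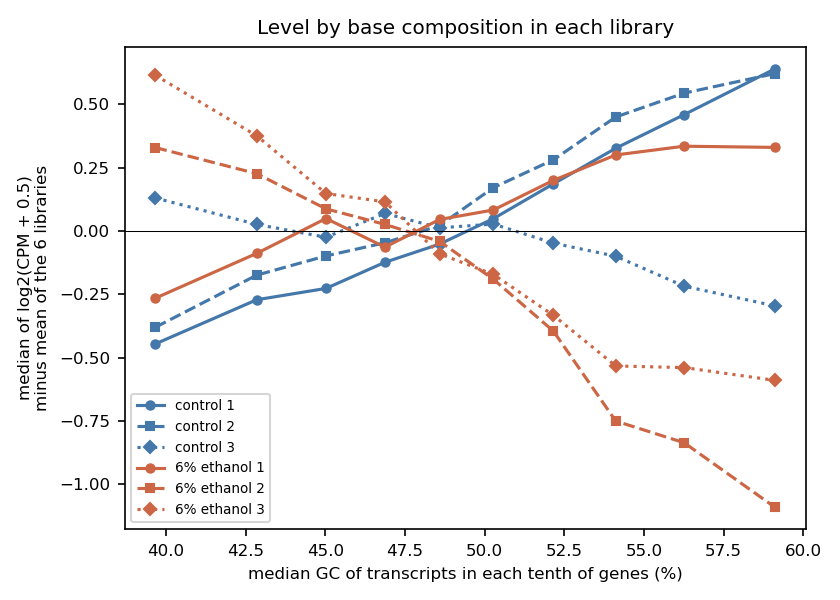
Median of log2(CPM + 0.5) minus the mean of the 6 libraries (vertical axis) for 10 bins of tested genes of equal size by transcript GC content in percent (horizontal axis), 1 line per library, controls in blue and 6% ethanol in orange. In the most GC-rich bin the lines end at 0.64, 0.62 and -0.30 for control 1, 2 and 3, and at 0.33, -1.09 and -0.59 for 6% ethanol 1, 2 and 3.

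Several markers of the morula were present in each of the 6 libraries, and others were low in some. Utf1 had 0.327, 1.30 and 1.47 CPM in controls and 0.762, 1.15 and 14.6 CPM at 6% ethanol. Klf17 fell to 3.08 CPM in control 3 and 4.01 CPM in 6% ethanol 2. Pou5f1, the gene of the pluripotency factor OCT4, had 42.5, 71.9 and 31.96 CPM in controls and 50.2, 49.1 and 33.5 CPM at 6% ethanol. Cdh1, the gene of E-cadherin, the adhesion molecule of compaction, had 321, 397 and 309.8 CPM in controls and 409.5, 265 and 282 CPM at 6% ethanol. Cdx2, which directs trophectoderm fate, had 75.04, 69.1 and 93.7 CPM in controls and 85.3, 10.7 and 159.8 CPM at 6% ethanol. The low value of Cdx2 in 6% ethanol 2 lay apart from the other 5 libraries. Of 20 cumulus and granulosa cell markers, 10 had 0 counts in all 6 libraries, among them Has2, Ptx3, Fshr and Cyp11a1. Their summed level was 37.7 to 114 CPM (of the unscaled library total) in controls and 17.2 to 63.2 at 6% ethanol, with Col4a1 the largest part in each control and in 6% ethanol 1, and Amhr2 in 6% ethanol 2 and 3. Sperm markers summed to 1.27 to 8.66 CPM in controls and 3.39 to 8.52 at 6% ethanol, with Prm2, Tnp1 and Odf1 at 0 in each library and 9 of 16 at 0 in all 6. Blood markers summed to 0.294 to 11.6 and 0.160 to 7.61 CPM, with 6 of 10 at 0, and came mostly from Cd68 and Cd74.

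The widest gaps between the groups, with the upper group at 10 CPM or more in each library, were found for genes of unrelated functions. Dbr1, the enzyme that opens intron lariats, had 7.19, 19.6 and 23.2 CPM in controls and 77.2, 133 and 499 CPM at 6% ethanol. Its lowest 6% library stood 3.33-fold above its highest control. Dnajc25, a membrane-bound member of the DnaJ co-chaperone family, had 2.29, 3.902 and 2.64 CPM in controls against 10.4, 25.01 and 19.3 CPM at 6% ethanol, a gap of 2.67-fold between the groups. Mphosph6, a cofactor of the RNA exosome in ribosomal RNA maturation, had 11.8, 15.6 and 15.1 CPM in controls and 33.6, 57.5 and 142 CPM at 6% ethanol. Eef1e1, a scaffold protein of the multi-synthetase complex that holds aminoacyl-tRNA synthetases together, had 28.01, 28.5 and 34.5 CPM in controls and 65.2, 197 and 98.9 CPM at 6% ethanol. In each of these 4 genes the spread within the 6% group was wider than within controls.

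Tet1 was the tightest of the genes with a wide gap. It encodes a dioxygenase that oxidises 5-methylcytosine in the course of DNA demethylation, and it had 41.6, 38.3 and 33.9 CPM in controls and 85.3, 86.5 and 101 CPM at 6% ethanol. The groups each spanned a narrow range and stood 2.05-fold apart at their nearest libraries, with a log2 fold change of 1.26 ± 0.54 SE, or 0.90 with the GC trend removed. Gtf2h3, a subunit of the transcription and repair factor TFIIH, had 55.1, 52.5 and 37.1 CPM in controls and 104, 98.9 and 133 CPM at 6% ethanol (1.21 ± 0.51 SE). Prl3b1, a member of the prolactin family best known from the placenta, had 9.31, 7.12 and 12.5 CPM in controls and 23.03, 23.5 and 29.6 CPM at 6% ethanol (1.40 ± 0.72 SE). Mrpl1, a protein of the mitochondrial ribosome, had 31.6, 42.7 and 62.2 CPM in controls and 126, 958 and 122 CPM at 6% ethanol. In Mrpl1 the library 6% ethanol 2 was several times above the other libraries of its group, which still cleared the controls.

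Among genes with lower CPM at 6% ethanol and 10 CPM or more in each control, the widest gap was that of Uqcr11, a small subunit of respiratory complex III. Uqcr11 had 12.002, 17.6 and 10.995 CPM in controls and 1.69, 2.67 and 0.661 CPM at 6% ethanol, 4.11-fold apart at the nearest libraries. Plec, the gene of the cytoskeletal linker plectin, had 40.3, 25.7 and 24.6 CPM in controls and 7.196, 1.15 and 1.101 CPM at 6% ethanol. DESeq2 called Plec (adjusted p = 0.0495). Apoe, a lipid carrier protein, had 35.1, 11.3 and 10.995 CPM in controls and 1.19, 3.44 and 0.2202 CPM at 6% ethanol. Cyb5r3, a cytochrome b5 reductase, had 12.8, 13.9 and 10.995 CPM in controls and 4.36, 2.48 and 1.54 CPM at 6% ethanol. Each of these 4 transcripts was GC-rich, at 55.4 to 61.3%, and each kept separate groups with the GC trend removed.

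Bbs4, a subunit of the BBSome that serves primary cilia, had 14.8, 11.4 and 23.02 CPM in controls and 3.51, 0.191 and 3.303 CPM at 6% ethanol. Zfp473, a zinc finger protein of histone messenger RNA processing, had 27.3, 36.1 and 20.4 CPM in controls and 7.75, 0 and 3.08 CPM at 6% ethanol. Efhd2, a calcium-binding protein that acts on actin, had 52.01, 61.5 and 227 CPM in controls and 19.2, 10.1 and 7.05 CPM at 6% ethanol, and control 3 stood far above the other controls. AU021092, whose product is not described here, had 33.8, 15.9 and 19.2 CPM in controls and 1.86, 0.382 and 4.29 CPM at 6% ethanol. Bbs4 and Zfp473 had GC contents of 46.7 and 47.01%, below the median of all tested genes, on the GC-poor side.

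**Figure D3:**
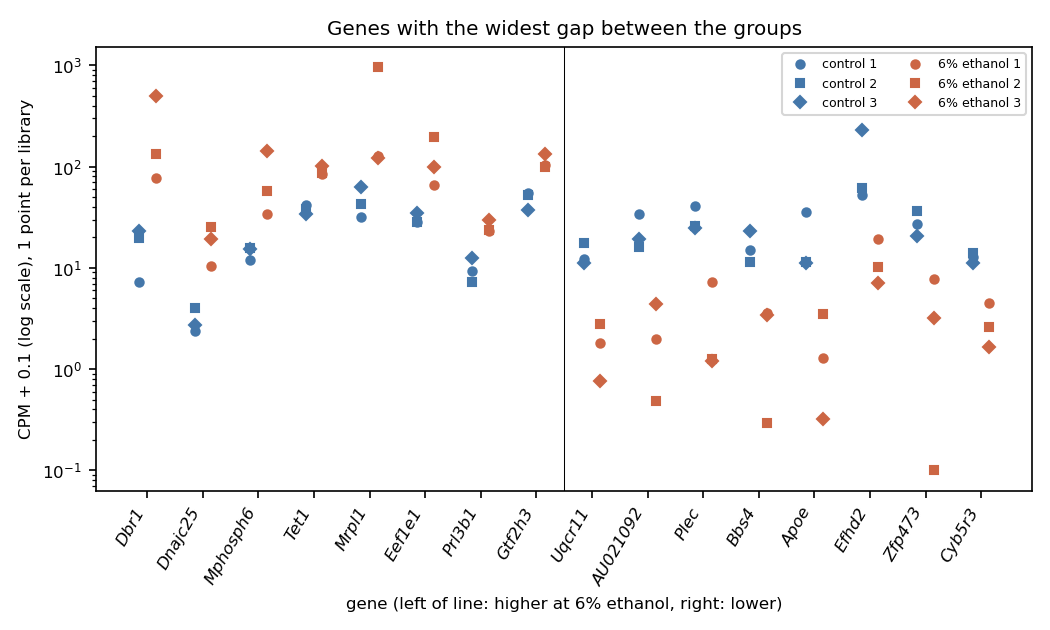
CPM plus 0.1 on a log scale (vertical axis) of the 8 higher and 8 lower genes with the widest gap between the groups (horizontal axis), 1 point per library, controls in blue and 6% ethanol in orange. Tet1 and Gtf2h3 have the most compact groups, while Mrpl1, Efhd2 and Dbr1 each hold 1 library far from the others of its group.

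Of 18 listed glycolysis genes 16 were tested, 15 lay below 0, 4 were lower at an unadjusted p under 0.05, and 7 did not overlap (43.8% of the list, against 4.72% of all tested genes). The list's median log2 fold change was -1.34, where the median of all tested genes was -0.01. It was -0.78 without control 2 and -1.77 without 6% ethanol 1. Glycolysis transcripts had a median GC content of 53.5%. With the GC trend removed the median was -1.07, 14 genes lay below 0 and 5 were lower without overlap. In the 4 short-header libraries alone the median was -1.02, and between the 2 long-header libraries -0.82. The summed level of the tested genes overlapped, at 1694, 2157 and 886 CPM in controls and 980, 499 and 1169 CPM at 6% ethanol.

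From the top of the pathway, Slc2a1, the glucose transporter GLUT1, had 79.9, 39.6 and 46.6 CPM in controls and 37.7, 1.53 and 1.43 CPM at 6% ethanol. The first library of the 6% group was just under the lowest control and the other 2 were far lower. Hk1, a hexokinase, had 41.6, 27.5 and 21.6 CPM in controls and 19.8, 14.1 and 19.5 CPM at 6% ethanol. Gpi1, which converts glucose 6-phosphate to fructose 6-phosphate, had 31.4, 55.7 and 18.3 CPM in controls and 17.9, 6.49 and 3.41 CPM at 6% ethanol, with a log2 fold change of -1.91 ± 0.80 SE. Pfkl, the liver-type subunit of phosphofructokinase, which commits sugar to the pathway, had 10.4, 17.4 and 37.1 CPM in controls and 5.76, 0 and 0.4404 CPM at 6% ethanol (-3.34 ± 1.41 SE). In Pfkl the lowest control exceeded the highest 6% library by 1.801-fold. Aldoa, the aldolase that cleaves the 6-carbon sugar, had 129.9, 199 and 147 CPM in controls and 105, 29.4 and 41.4 CPM at 6% ethanol (-1.44 ± 0.55 SE).

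Lower in the pathway, Gapdh had 163, 186 and 127 CPM in controls and 40.9, 85.4 and 5.18 CPM at 6% ethanol, with a log2 fold change of -1.86 ± 0.86 SE, although its many pseudogenes make its counts uncertain. Pgk1, the first ATP-forming enzyme of glycolysis, had 25.8, 28.5 and 69.9 CPM in controls and 25.4, 18.5 and 7.49 CPM at 6% ethanol, so the nearest libraries nearly touched. Slc2a3, the glucose transporter GLUT3, overlapped between the groups at 1039.6, 684 and 323 CPM in controls and 487, 285 and 932 CPM at 6% ethanol. Pfkp, the platelet-type phosphofructokinase subunit, was the 1 gene above 0. In Eno1, Hk2 and Tpi1 the groups overlapped, and the highest library was control 2 in each.

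The tricarboxylic acid cycle list was lower in part. Of 21 tested genes 10 lay above 0 and 11 below, and 5 were lower without overlap (23.8%, against 4.72%), with a median of -0.25, which was -0.42 in the short-header libraries and -0.47 between the long-header libraries. These 5 stood at consecutive steps of the cycle. Idh3a and Idh3b, subunits of the isocitrate dehydrogenase that makes 2-oxoglutarate, had 167, 203 and 153 CPM in controls and 116, 44.3 and 43.8 CPM at 6% ethanol for the first and 53.2, 62.03 and 103 CPM in controls and 35.05, 48.9 and 38.3 CPM at 6% ethanol for the second. Ogdh and Dlst, the E1 and E2 components of the 2-oxoglutarate dehydrogenase complex, had 290.2, 276 and 312 CPM in controls and 194, 90.1 and 67.2 CPM at 6% ethanol for Ogdh and 37.2, 70.3 and 71.1 CPM in controls and 35.98, 25.6 and 6.94 CPM at 6% ethanol for Dlst. Suclg1, a subunit of succinyl-CoA ligase, which acts next, had 399, 459 and 345 CPM in controls and 282, 276 and 102 CPM at 6% ethanol. Controls of Ogdh lay within a narrow band, and its 6% libraries 2 and 3 lay furthest below it.

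The log2 fold changes were -1.35 ± 0.51 SE for Idh3a and -1.32 ± 0.52 SE for Ogdh, and -1.49 and -1.19 with the GC trend removed. Sucla2, the subunit of the ATP-forming succinyl-CoA ligase, did not follow them, with 219.96, 326 and 2585 CPM in controls and 275, 3765 and 2139 CPM at 6% ethanol. Its high values were in control 3, 6% ethanol 2 and 6% ethanol 3, the 3 libraries in which GC-poor transcripts were high. The subunits of pyruvate dehydrogenase, Pdha1, Pdhb and Dlat, overlapped between the groups.

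**Figure D4:**
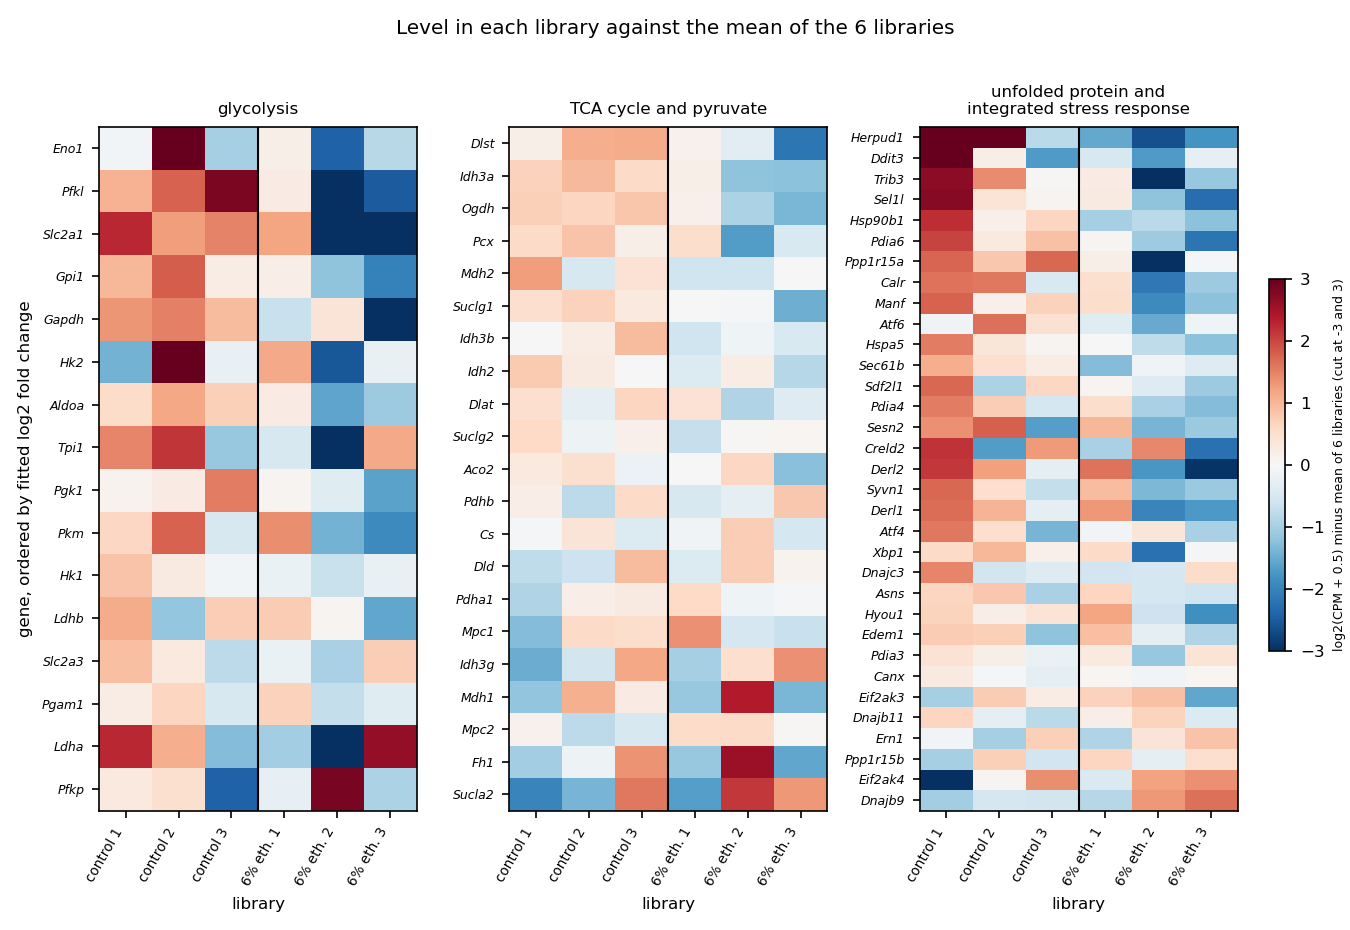
Level of each tested gene of glycolysis, the tricarboxylic acid (TCA) cycle list and the stress responses of the endoplasmic reticulum (rows, ordered by fitted log2 fold change) in each of the 6 libraries (columns), as log2(CPM + 0.5) minus the mean of the 6 libraries, with red above and blue below that mean and colours limited to -3 and 3. In glycolysis the blue cells gather in 6% ethanol 2 and 3, and in the stress response list the red cells gather in control 1.

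The unfolded protein response raises chaperones and degradation factors of the endoplasmic reticulum when misfolded proteins build up there, through the sensors ATF6, IRE1 and PERK. Many of its targets carry the endoplasmic reticulum stress element (ERSE) close to the start of transcription, which NF-Y and ATF6 or XBP1 bind. The promoters of 4 genes whose groups did not overlap are shown, from RefSeq on GRCm38.p6, because they hold this element. Each is printed 5′ to 3′ in the direction of transcription, with the element in capitals.

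Hspa5, chr2:34772005-34772063, plus strand: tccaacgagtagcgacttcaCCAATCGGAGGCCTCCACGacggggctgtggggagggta
Hsp90b1, chr10:86705513-86705676, minus strand: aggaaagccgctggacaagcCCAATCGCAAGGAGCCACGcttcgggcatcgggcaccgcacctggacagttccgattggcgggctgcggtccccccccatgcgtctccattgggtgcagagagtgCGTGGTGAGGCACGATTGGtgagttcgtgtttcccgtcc
Pdia6, chr12:17266471-17266529, plus strand: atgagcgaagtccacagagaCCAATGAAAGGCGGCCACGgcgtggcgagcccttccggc
Herpud1, chr8:94386357-94386407, plus strand: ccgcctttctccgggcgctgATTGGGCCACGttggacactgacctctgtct

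The motif searched was CCAAT and CCACG with any 9 bases between them, or for the variant ERSE-II ATTGG and CCACG with any 1 base between them, on both strands of the 250 bases before and 50 bases after each start. ERSE was found in 9 of 31 promoters of the stress response list (29.0%), in 0.137% of 27025 promoters in all and in 0.224% of 8945 promoters of tested genes. ERSE-II was found in 2 of the 31 (6.45%), against 0.0444% and 0.112%. Hsp90b1 holds 2 ERSE copies, 1 on each strand, and in Herpud1 the element is ERSE-II. Of the 10 tested genes with either element 8 lay below 0 and 4 were lower without overlap, with a median log2 fold change of -1.25. Of the 18 tested genes with a promoter and neither element 14 lay below 0 and 2 were lower without overlap, with a median of -0.96. A match of letters describes the promoter and does not show that it was bound in these embryos.

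Over the whole stress response list, 33 of 36 genes were tested and 26 lay below 0. At an unadjusted p under 0.05, 7 were lower and 1 higher, and 7 were lower without overlap (21.2%, against 4.72%) and 0 higher. The median was -1.10, and -0.86 with the GC trend removed. There too 7 were lower without overlap, but not all were the same genes, because Hspa5 then overlapped. The median was -0.43 without control 1 and -1.60 without 6% ethanol 1. With the form of the column header as a term it was -1.30, in the 4 short-header libraries -1.82, and between the 2 long-header libraries -0.16. The summed level of the list was highest in control 1, as the plot of genes by library shows, and overlapped between the groups. It was 6580, 3842 and 2853 CPM in controls and 3475, 2172 and 2405 CPM at 6% ethanol. Control 1 also had the largest share of the ribosomal RNA gene Rn18s among the 6 libraries, at 1.28% of counts against at most 0.119% in the other 5, and the part of this in the result was not tested.

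Hspa5, the gene of the chaperone BiP, which holds the 3 sensors inactive, had 847, 375 and 307 CPM in controls and 288, 171 and 123 CPM at 6% ethanol (log2 fold change -1.39 ± 0.51 SE). Control 1 was the highest library, and the lowest control was close to the highest 6% library. With the GC trend removed the groups of Hspa5 overlapped, with a log2 fold change of -1.63. Hsp90b1, the chaperone GRP94, had 364, 87.7 and 122 CPM in controls and 39.2, 44.5 and 33.3 CPM at 6% ethanol, with a gap of 1.97-fold. Pdia6, a protein disulfide isomerase, had 165, 49.5 and 74.8 CPM in controls and 42.9, 18.9 and 8.48 CPM at 6% ethanol (-2.04 ± 0.71 SE). Herpud1, a scaffold of the degradation machinery, had 90.1, 74.2 and 3.96 CPM in controls and 2.201, 0.764 and 1.76 CPM at 6% ethanol. Control 3 held far less Herpud1 than the other controls, and the 3 libraries of the 6% group were lower still.

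Other members without overlap act at further points of the response. Atf6, the gene of 1 of the sensors, had 37.2, 126 and 54.98 CPM in controls and 31.2, 13.7 and 36.8 CPM at 6% ethanol, with control 1 and 6% ethanol 3 nearly equal. Ppp1r15a, the GADD34 subunit that lets a phosphatase restore translation, had 35.4, 18.1 and 34.3 CPM in controls and 11.5, 0 and 9.799 CPM at 6% ethanol. Sec61b, a subunit of the translocon through which proteins enter the endoplasmic reticulum, had 13.1, 8.63 and 7.04 CPM in controls and 2.12, 5.54 and 4.404 CPM at 6% ethanol. Manf, a secreted stress-induced protein, had 1859, 610.4 and 879 CPM in controls and 792, 146 and 233 CPM at 6% ethanol and overlapped, with a log2 fold change of -1.52 ± 0.62 SE. Eif2ak4, Ern1 and Dnajb9 lay above 0, so the list did not move as a block. Cytosolic chaperones did not share the pattern of lower levels, with 19 of 30 tested members above 0 and a median of 0.15. Hsp90ab1, the cytosolic relative of Hsp90b1, had 4234, 4305 and 3661 CPM in controls and 3653, 3486 and 3365 CPM at 6% ethanol, with control 3 and 6% ethanol 1 nearly equal.

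The 18 glycolysis genes were also searched for the core of the hypoxia response element, ACGTG, on both strands. It was found in 11 of 17 promoters (64.7%), against 21.8% of all promoters and 30.1% of those of tested genes. Among the 11 were Slc2a1, Hk1, Aldoa, Gapdh and Pgk1, all lower without overlap, and Hk2, Pgam1, Pkm and Ldha, which overlapped. Pfkm and Aldoc also held it and were not tested. Gpi1 and Pfkl, which were lower without overlap too, were not among the 11. So short a motif also occurs in 10 of the 31 promoters of the stress response list (32.3%).

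All 13 mitochondrially encoded messages lay above 0, 4 were higher at an unadjusted p under 0.05, and 0 were free of overlap, with a median of 1.57. mt-Nd1, a complex I subunit, had 1624, 2473 and 5610.3 CPM in controls and 2543, 10645 and 15463 CPM at 6% ethanol. The high libraries were 6% ethanol 2 and 3 and, among controls, control 3, the same libraries in which GC-poor transcripts were high, and these 13 messages had a median GC content of 37.1%. With the GC trend removed 12 of 13 lay above 0, with a median of 0.86. The median was 1.05 without 6% ethanol 3 and 2.43 without control 3. It was 1.79 in the short-header libraries and 0.23 between the long-header libraries.

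Nuclear genes of the respiratory chain were spread around 0. Of 36 tested complex I genes 20 lay below 0, with a median of -0.08. Without overlap, 3 were lower (8.33%, against 4.72% of all tested genes), or 2 with the GC trend removed. Ndufa8, an accessory subunit, had 73.2, 50.6 and 49.3 CPM in controls and 22.1, 20.4 and 16.5 CPM at 6% ethanol. Both groups of Ndufa8 were narrow, with a log2 fold change of -1.55 ± 0.54 SE, or -1.22 with the GC trend removed. Ndufa7, another accessory subunit, had 27.4, 22.3 and 58.3 CPM in controls and 2.92, 4.201 and 15.97 CPM at 6% ethanol, and Ndufc2 had 6.45, 6.58 and 9.68 CPM in controls and 5.88, 1.91 and 1.101 CPM at 6% ethanol. Of 39 tested genes of complexes II to V, 23 lay below 0, with a median of -0.07. With the GC trend removed 1 was lower without overlap, and with it kept 3 were (7.69%, against 4.72%). Besides Uqcr11 these were Cox8a, a subunit of cytochrome c oxidase, with 17.96, 12.6 and 20.4 CPM in controls and 11.6, 8.02 and 2.42 CPM at 6% ethanol, and Atp5g2, which encodes the c ring subunit of ATP synthase, with 14.4, 42.3 and 79.2 CPM in controls and 11.4, 13.4 and 7.49 CPM at 6% ethanol. Atp5b, the catalytic beta subunit of ATP synthase, was level at 570.5, 896 and 639.6 CPM in controls and 726, 628 and 687 CPM at 6% ethanol.

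Proteins that care for mitochondrial proteins were mixed, with 14 of 27 tested genes above 0 and a median of 0.07. Lonp1, a protease of the matrix, had 71.5, 141 and 92.9 CPM in controls and 186, 1093 and 389 CPM at 6% ethanol (2.45 ± 0.62 SE). Hspa9, the matrix chaperone mortalin, had 563, 639.7 and 647 CPM in controls and 807, 828 and 1297 CPM at 6% ethanol, and overlapped with the GC trend removed. Clpp, the subunit that cuts proteins in another matrix protease, went the other way with 22.9, 22.9 and 17.7 CPM in controls and 12.02, 9.93 and 10.3 CPM at 6% ethanol. In Clpp both groups were narrow, and the log2 fold change was -0.98 ± 0.67 SE, or -0.49 with the GC trend removed. Of 76 tested genes of the mitochondrial ribosome 5 were higher and 5 lower without overlap (6.58% each, against 3.35 and 4.72% of all tested genes). With the GC trend removed these counts were 2 and 4, and the median of the main fit was -0.09. Mrps11 was the member of smallest p among the lower ones, with 20.4, 15.9 and 6.89 CPM in controls and 3.77, 0.382 and 1.21 CPM at 6% ethanol.

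Genes of the actin cytoskeleton, which drives compaction and polarity, were lower more often than higher. Of 46 tested, 30 lay below 0, 7 were lower without overlap (15.2%, against 4.72%) and 2 were higher, with a median of -0.27. The median was -0.11 without control 1, -0.44 in the short-header libraries, -0.11 between the long-header libraries, and -0.22 with the GC trend removed, where 5 were lower without overlap. Myh9, the heavy chain of non-muscle myosin IIA, had 103, 72.1 and 41.9 CPM in controls and 28.7, 19.3 and 20.3 CPM at 6% ethanol (-1.67 ± 0.57 SE). Vasp, which promotes the growth of actin filaments, had 233, 49.5 and 181 CPM in controls and 35.6, 10.7 and 15.2 CPM at 6% ethanol (-2.91 ± 0.73 SE). In both genes each 6% library was clear of the controls, and DESeq2 called Vasp (adjusted p = 0.0247).

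Myl6, a light chain of the same myosins, had 223, 289.7 and 121 CPM in controls and 97.7, 104 and 106 CPM at 6% ethanol, and Wasf2, which activates the Arp2/3 complex, had 125, 77.6 and 134 CPM in controls and 76.6, 54.04 and 29.4 CPM at 6% ethanol. Capzb, which caps filament ends, had 441, 461 and 376 CPM in controls and 331, 374 and 109 CPM at 6% ethanol. The 2 higher genes were Cfl2, an actin-severing cofilin, with 40.5, 42.8 and 25.2 CPM in controls and 45.7, 96.4 and 111 CPM at 6% ethanol, and Actr2, a subunit of Arp2/3, with 168, 177 and 198 CPM in controls and 249, 362 and 208 CPM at 6% ethanol. Both of these transcripts are GC-poor, at 36.9 and 40.3%, and both overlapped with the GC trend removed.

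Of 42 tested genes of compaction, junctions and polarity 25 lay below 0, with a median of -0.25 that was 0.14 without control 2. Without overlap, 1 gene was lower (2.38%, against 4.72% of all tested genes). That gene was Slc9a3r1, the apical scaffold EBP50 that binds ezrin, with 35.5, 15.4 and 27.4 CPM in controls and 11.2, 1.15 and 2.97 CPM at 6% ethanol (-2.33 ± 0.97 SE). Cdc42, a GTPase of apical polarity, overlapped at 863, 709 and 723 CPM in controls and 989, 952 and 623 CPM at 6% ethanol. Among 11 tested pumps and channels of cavitation 0 were free of overlap.

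Trophectoderm and Hippo pathway genes went both ways, with a median of 0.07. Among 32 tested 3 were higher and 3 lower without overlap (9.38% each, against 3.35 and 4.72% of all tested genes). With the GC trend removed 2 were higher and 0 lower. Stk4, the Hippo kinase MST1 and the member of highest mean, overlapped at 72.2, 116 and 105 CPM in controls and 232, 35.1 and 28333 CPM at 6% ethanol, so that nearly all its counts were in 6% ethanol 3. Its log2 fold change was 6.60 ± 1.79 SE, and 0.46 without that library. Krt8, an early keratin of outer cells, had 64.3, 110.3 and 27.3 CPM in controls and 25.7, 3.06 and 26.1 CPM at 6% ethanol (-1.88 ± 0.89 SE), and 6% ethanol 2 held least. Lats2, a kinase that keeps YAP out of the nucleus, had 47.4, 35.5 and 47.6 CPM in controls and 35.3, 3.06 and 19.7 CPM at 6% ethanol, with 6% ethanol 1 just under the lowest control. Yap1, the transcriptional cofactor that this kinase restrains, had 154, 122 and 128 CPM in controls and 176, 187 and 213 CPM at 6% ethanol. Mob1a and Mob1b, adaptors of the same kinase, had 172, 319 and 433 CPM in controls and 552, 452 and 446 CPM at 6% ethanol for Mob1a and 111, 102 and 58.6 CPM in controls and 117, 117 and 265 CPM at 6% ethanol for Mob1b. Of these genes Yap1 kept separate groups with the GC trend removed, with a log2 fold change of 0.51 ± 0.40 SE.

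Pluripotency genes were near even, with 15 of 27 tested above 0, a median of 0.13, and 1 gene higher without overlap (3.70%, against 3.35%). It was Dppa2, a chromatin-bound activator of early embryonic genes, with 207, 104 and 128 CPM in controls and 239.7, 260.1 and 238 CPM at 6% ethanol. The 6% libraries of Dppa2 were nearly equal, and control 1 was the closest of the controls. Its groups overlapped with the GC trend removed. Nanog, a factor of the inner cell mass, ranged widely in both groups, at 199.9, 42.3 and 66.7 CPM in controls and 174, 38.2 and 17.7 CPM at 6% ethanol. Dppa3, a protein that protects the maternal genome from demethylation, had 1025, 783 and 2253 CPM in controls and 1494, 3393 and 4027 CPM at 6% ethanol and overlapped. Of 28 primitive endoderm and Fgf signalling genes 2 were higher without overlap (7.14%, against 3.35%). Spred2, an inhibitor of Ras and ERK signalling, was 1 of them, with 15.5, 10.98 and 2.199 CPM in controls and 25.8, 17.9 and 15.7 CPM at 6% ethanol. Gata6, the primitive endoderm factor, overlapped at 1269, 572 and 737 CPM in controls and 1119, 1464 and 944 CPM at 6% ethanol.

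Messages inherited from the egg were looked at next. Of 41 listed oocyte and maternal genes 21 were tested, and the median was -0.35. Without overlap, 1 was higher and 2 were lower (4.76 and 9.52%, against 3.35 and 4.72% of all tested genes). Ooep, a protein of the subcortical maternal complex, had 5.55, 20.7 and 2.35 CPM in controls and 0.466, 1.91 and 1.32 CPM at 6% ethanol. Mybl1, a transcription factor of germ cells, had 1.71, 6.54 and 6.16 CPM in controls and 6.86, 45.6 and 33.6 CPM at 6% ethanol, but its GC content was 37.01% and it overlapped with the GC trend removed. Of 23 tested genes of the 2-cell stage and genome activation 15 lay above 0, with 0 free of overlap and a median of 0.38 that ran from -0.19 without 6% ethanol 2 to 1.52 without control 1. The summed oocyte list was 1628 to 3167 CPM (of the unscaled library total) in controls, and 2092, 3658 and 3722 in the 6% libraries, so 6% ethanol 2 and 3 exceeded each control.

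Of 20 tested genes of DNA methylation and imprint protection 2 were higher and 2 lower without overlap (10.0% each, against 3.35 and 4.72% of all tested genes). The median was -0.34, 0.05 without control 1 and -0.54 with the GC trend removed. Beside Tet1, the higher gene was Kdm1b, a lysine demethylase of oocytes that clears the way for imprints, with 13.7, 8.31 and 14.1 CPM in controls and 20.2, 16.4 and 37.4 CPM at 6% ethanol. Lower were Dnmt3a, a de novo methyltransferase, with 23.5, 28.5 and 52.3 CPM in controls and 17.1, 20.8 and 16.8 CPM at 6% ethanol, and Mbd2, a reader of methylated DNA, with 2.205, 2.64 and 2.35 CPM in controls and 0.677, 0.382 and 0.3303 CPM at 6% ethanol. The log2 fold changes were -0.93 ± 0.62 SE for Dnmt3a and -2.32 ± 1.10 SE for Mbd2. Trim28, the corepressor that guards imprints, overlapped at 286, 372 and 228 CPM in controls and 477, 274 and 225 CPM at 6% ethanol. With the GC trend removed 2 genes of the list were higher and 1 was lower without overlap. Kdm1b and Dnmt3a then overlapped, Tet1 and Mbd2 stayed separate, and Trim28 was higher without overlap.

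Among 22 tested imprinted genes, 11 lay above 0 and 11 below, and 1 was higher without overlap (4.55%, against 3.35% of all tested genes). Igf2r, the maternally expressed receptor that clears IGF2, was the 1 member free of overlap, with 271, 332 and 250.1 CPM in controls and 645, 382 and 976 CPM at 6% ethanol (1.23 ± 0.44 SE, or 1.36 with the GC trend removed). Of 48 histone methyltransferases and demethylases 2 were higher and 1 lower without overlap (4.17 and 2.08%, against 3.35 and 4.72%), with a median of 0.02. Kdm7a, a demethylase of H3 lysine 9 and lysine 27, had 79.04, 56.6 and 53.9 CPM in controls and 112, 389 and 185 CPM at 6% ethanol (1.86 ± 0.55 SE). Of 56 tested chromatin remodelers, acetyltransferases and deacetylases 3 were higher and 1 was lower without overlap (5.36 and 1.79%), or 1 and 1 with the GC trend removed, with a median of 0.14. Hdac2, a histone deacetylase, had 43.4, 65.03 and 32.4 CPM in controls and 93.9, 84.97 and 103 CPM at 6% ethanol, and Smarcb1, a core subunit of the SWI/SNF remodeler, had 19.8, 32.7 and 34.9 CPM in controls and 50.5, 44.7 and 35.01 CPM at 6% ethanol. Arid2, a subunit of another SWI/SNF form, had 239, 231 and 278 CPM in controls and 202, 169 and 203 CPM at 6% ethanol, narrow in both groups. Slbp, the protein that binds the stem-loop of histone messages, had 24.3, 52.9 and 33.6 CPM in controls and 64.4, 180.1 and 102 CPM at 6% ethanol (1.64 ± 0.59 SE). It was the 1 member of 22 histone genes and chaperones free of overlap (4.55%, against 3.35% of all tested genes higher).

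Splicing factors were higher more often than lower. Of 57 tested 38 lay above 0, where 49.5% of all genes did, 6 were higher without overlap (10.5%, against 3.35%) and 2 lower. The median was 0.32, and 0.17 with the GC trend removed. It was 0.36 in the short-header libraries and 0.09 between the long-header libraries. On library sizes without TMM scaling the median of the list was -0.01, which is above that of all genes on that scale. Srsf10, a splicing factor of the SR family, had 55.3, 85.7 and 131 CPM in controls and 211, 220.3 and 212 CPM at 6% ethanol (1.24 ± 0.48 SE). The 6% libraries of Srsf10 were nearly equal and the controls spread below them. Srsf6 had 179, 228 and 224 CPM in controls and 232, 669.8 and 336 CPM at 6% ethanol, Srsf2 had 239, 122 and 209 CPM in controls and 254, 252 and 475 CPM at 6% ethanol, and Srsf1 had 348, 369 and 273 CPM in controls and 499.7, 400.4 and 580.3 CPM at 6% ethanol.

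Of the lower splicing genes, Prpf4, a protein of the U4/U6 particle, had 252, 50.1 and 59.8 CPM in controls and 48.6, 22.1 and 20.1 CPM at 6% ethanol (-1.99 ± 0.74 SE), with control 1 well above the rest. Raly, an RNA-binding protein related to hnRNP C, had 113, 103 and 101 CPM in controls and 76.8, 51.7 and 45.5 CPM at 6% ethanol. Hnrnpk, a poly(C)-binding protein, was higher by a small margin at 619, 450.1 and 585 CPM in controls and 646, 772 and 849.8 CPM at 6% ethanol. With the GC trend removed 4 splicing genes were higher without overlap, among them Srsf10 and Srsf2.

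Of 40 tested translation factors 25 lay above 0, and 4 were higher and 0 lower without overlap (10.0%, against 3.35%), with a median of 0.21, or -0.08 on unscaled library sizes. Eif4g2, which recruits ribosomes without binding the cap-binding protein, had 2332, 2188 and 2378 CPM in controls and 3724, 4134 and 4543 CPM at 6% ethanol (0.85 ± 0.36 SE). Its controls spanned a narrow range, and the nearest libraries of the groups stood 1.57-fold apart. Eif3f, a subunit of eIF3, had 87.3, 219 and 199 CPM in controls and 310.3, 331 and 249.9 CPM at 6% ethanol, and Eif1ax, a factor of start codon scanning, had 44.4, 51.7 and 74.8 CPM in controls and 90.1, 295 and 102 CPM at 6% ethanol. With the GC trend removed Eif1ax overlapped, and Eif4g2 and Eif3f kept separate groups. Eif4g2 then had a log2 fold change of 0.47, and 5 genes of the list were higher without overlap.

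Ribosomal proteins of the cytosol were not separated. Of 79 tested 48 lay above 0 and 1, Rpl15, was lower without overlap (1.27%, against 4.72% of all tested genes). Rpl15 had 493, 434 and 637 CPM in controls and 391, 343 and 271 CPM at 6% ethanol, and pseudogene copies make these counts uncertain. Among 32 tested proteasome genes 1 was higher and 2 lower without overlap (3.125 and 6.25%, against 3.35 and 4.72%), with a median of 0.01. With the GC trend removed 1 was higher and 0 were lower. Psmd7, a lid subunit, had 104, 146 and 229 CPM in controls and 439, 292 and 429 CPM at 6% ethanol (1.28 ± 0.44 SE). Psmd4, a ubiquitin receptor, had 216.04, 237 and 324 CPM in controls and 163, 163 and 120.5 CPM at 6% ethanol, and Psmb3, a core subunit, had 70.8, 35.98 and 35.5 CPM in controls and 20.3, 25.4 and 10.7 CPM at 6% ethanol. Of 44 tested lysosome and autophagy genes 2 were higher and 2 lower without overlap (4.55% each, against 3.35 and 4.72%), or 1 and 1 with the GC trend removed. Ctsl, the protease cathepsin L, had 789.8, 1038 and 1058 CPM in controls and 1583, 1308 and 3318 CPM at 6% ethanol (1.11 ± 0.43 SE), and Atg5, needed to form autophagosomes, had 25.1, 26.4 and 25.4 CPM in controls and 48.6, 118 and 26.9 CPM at 6% ethanol. Mcoln1, a calcium channel of the lysosome, had 27.8, 14.4 and 11.7 CPM in controls and 6.48, 0 and 4.95 CPM at 6% ethanol.

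Genes that act on alcohol and its products were mostly scarce. Of 34 listed 18 were tested, 13 lay below 0, and 2 were lower without overlap (11.1%, against 4.72%). The median was -0.36, and it ran from -0.13 without control 2 to -1.84 without 6% ethanol 1. Adh5, the class III alcohol dehydrogenase that disposes of formaldehyde, had 15.2, 32.7 and 18.6 CPM in controls and 9.31, 1.53 and 4.29 CPM at 6% ethanol (-2.12 ± 0.90 SE). Akr1b3, an aldose reductase that also reduces aldehydes, had 22.1, 41.98 and 12.5 CPM in controls and 7.87, 4.39 and 7.597 CPM at 6% ethanol (-1.94 ± 0.79 SE). In both genes each 6% library was below each control, and 6% ethanol 2 held the least. Aldh2, the mitochondrial enzyme that oxidises acetaldehyde, had 34.4, 49.5 and 158 CPM in controls and 99.3, 44.1 and 1.54 CPM at 6% ethanol. In Aldh2 the library 6% ethanol 3 was far below the other 5, and 6% ethanol 1 lay within the controls.

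Antioxidant genes lay below 0 in 24 of 33 cases, with a median of -0.54. Without overlap, 2 were lower and 1 higher (6.06 and 3.03%, against 4.72 and 3.35% of all tested genes). Gpx4, the peroxidase that repairs oxidised membrane lipids, had 1109, 571 and 2819 CPM in controls and 89.1, 206 and 298 CPM at 6% ethanol (-2.92 ± 0.67 SE), and DESeq2 called it (adjusted p = 0.0243). Prdx2, a peroxiredoxin, was higher, with 14.5, 13.9 and 18.6 CPM in controls and 24.8, 92.8 and 61.7 CPM at 6% ethanol (1.93 ± 0.77 SE). Glrx, a glutaredoxin, had few counts, with 1.88, 2.64 and 2.05 CPM in controls and 0.508, 0 and 0 CPM at 6% ethanol. Among 31 tested p53 targets and apoptosis genes 0 were free of overlap and the median was 0.00. DNA damage and repair genes gave 1 higher and 2 lower of 52 without overlap (1.92 and 3.85%, against 3.35 and 4.72% of all tested genes). Rad50, of the complex that holds broken ends, had 18.1, 31.4 and 28.9 CPM in controls and 14.9, 1.91 and 12.6 CPM at 6% ethanol.

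Of 17 tested immediate early genes 13 lay below 0, with a median of -0.85. Btg2, an antiproliferative gene and the member of highest mean, overlapped at 117, 307 and 20.8 CPM in controls and 206, 36.5 and 45.9 CPM at 6% ethanol, and its log2 fold change of -0.62 ± 0.98 SE became 0.48 without control 2. Junb, a subunit of the AP-1 transcription factor, had 8.002, 1.16 and 0.147 CPM in controls and 0 counts in all 3 libraries of the 6% group. Pooled over each group and read against a limit of 3 counts, it was at least 35.4-fold lower at 6% ethanol, or at least 12.1-fold without control 1, which held most of its counts. Fos, its partner, had 4.82, 8.598 and 2.93 CPM in controls and 1.86, 2.48 and 0.661 CPM at 6% ethanol. Dusp6, a phosphatase that ERK signalling induces, was higher at 6.12, 8.35 and 3.52 CPM in controls and 13.8, 9.74 and 11.2 CPM at 6% ethanol.

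Receptors and signalling proteins gave 2 higher and 4 lower without overlap among 29 tested (6.90 and 13.8%, against 3.35 and 4.72% of all tested genes). Their median was -0.31. Smad4, the shared partner of BMP and Nodal signals, had 239, 309 and 349 CPM in controls and 205, 89.9 and 33.3 CPM at 6% ethanol (-1.45 ± 0.59 SE), with 6% ethanol 3 the lowest. Egfr, the epidermal growth factor receptor, had 9.72, 1.81 and 4.98 CPM in controls and 0.339, 0 and 0.661 CPM at 6% ethanol. Acvr1b, an activin and Nodal receptor, had 17.9, 7.98 and 7.77 CPM in controls and 1.31, 0 and 2.09 CPM at 6% ethanol, and Smad5, a BMP effector, had 3.103, 8.45 and 1.47 CPM in controls and 1.27, 0 and 0.2202 CPM at 6% ethanol. These last 3 transcripts had few counts in the 6% libraries. Insr, the insulin receptor, was higher, with 0.816, 0.939 and 0.586 CPM in controls and 2.03, 1.72 and 42.2 CPM at 6% ethanol, and most of its counts at 6% ethanol were in 6% ethanol 3.

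One-carbon metabolism, which feeds methyl groups to DNA and nucleotides to replication, had a median of -0.03. Among 29 tested genes 3 were higher and 1 lower without overlap (10.3 and 3.45%, against 3.35 and 4.72% of all tested genes). Gcsh, the lipoyl carrier of the glycine cleavage system, had 411, 858 and 1407 CPM in controls and 1498, 2126 and 3618 CPM at 6% ethanol (1.44 ± 0.51 SE). Its lowest 6% library was just above control 3, and control 1 was the lowest library of all. Mtr, methionine synthase, had 11.3, 27.02 and 33.1 CPM in controls and 56.003, 48.1 and 45.1 CPM at 6% ethanol, and Mthfd1l, a mitochondrial enzyme that makes formate, had 9.14, 3.87 and 6.45 CPM in controls and 12.8, 12.03 and 16.5 CPM at 6% ethanol. Gldc, the decarboxylase of the same glycine system, overlapped at 5841, 2453 and 2951 CPM in controls and 3298, 2569 and 2788 CPM at 6% ethanol. Mthfsd, an RNA-binding protein related to a folate enzyme, was lower with 8.002, 27.6 and 519 CPM in controls and 3.01, 3.82 and 1.87 CPM at 6% ethanol, and control 3 held most of its counts.

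Cell cycle genes were centred on 0, with 22 of 47 tested above it and a median of -0.01, and 3 were higher without overlap (6.38%, against 3.35%). Ccna2, a cyclin of S phase and mitosis, had 267, 220.4 and 228 CPM in controls and 285, 352 and 424 CPM at 6% ethanol. Ccne2, a cyclin of entry into S phase, had 15.1, 18.6 and 14.8 CPM in controls and 20.4, 26.7 and 51.5 CPM at 6% ethanol, and Bub3, of the spindle checkpoint, had 101, 179 and 180.5 CPM in controls and 245, 236 and 194 CPM at 6% ethanol. With the GC trend removed these 3 overlapped. Sterol and fatty acid synthesis, aminoacyl-tRNA synthetases, amino acid transporters and nucleolar genes each had at most 1 member free of overlap, and their medians were 0.16, -0.07, -0.42 and -0.02.

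**Figure D5:**
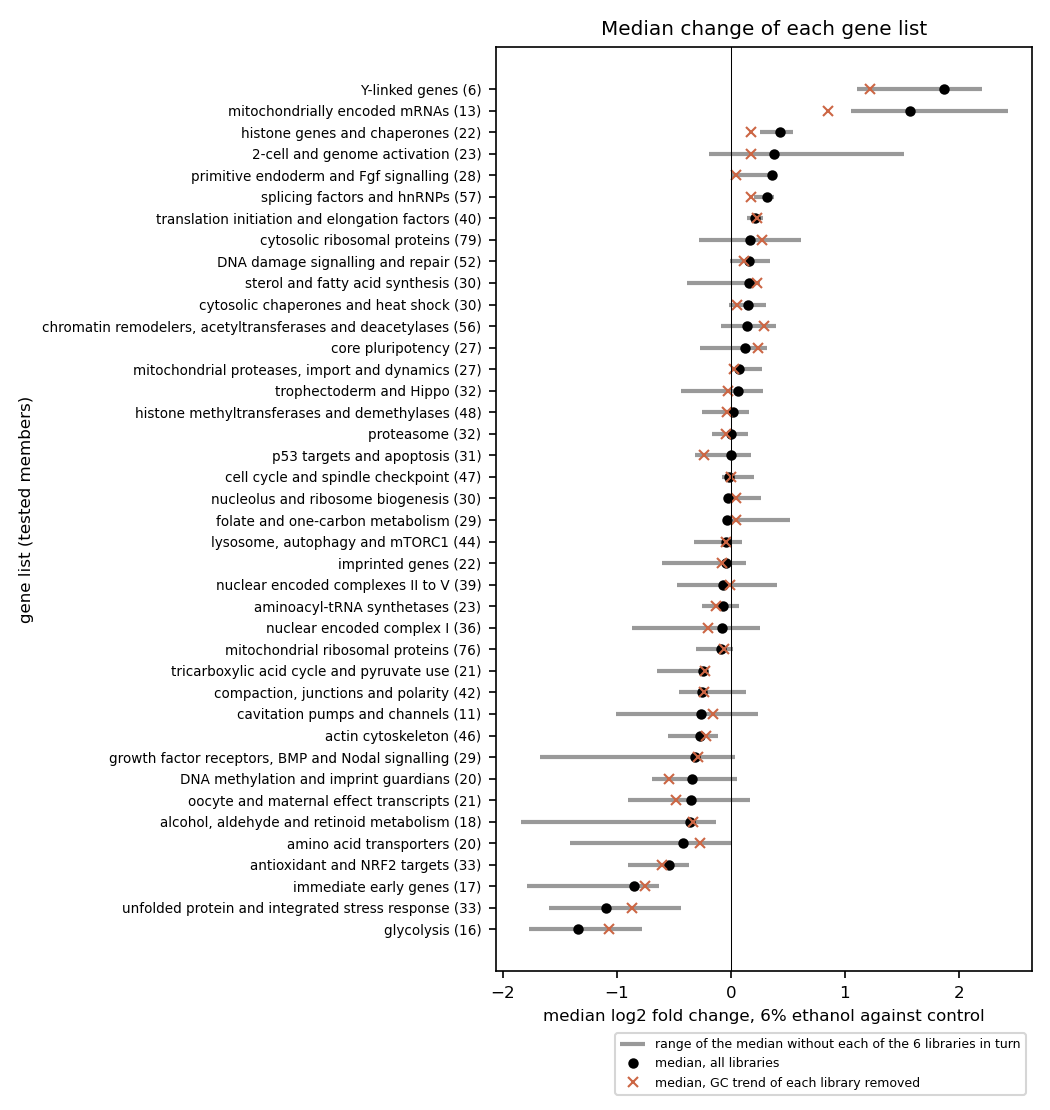
Median log2 fold change of 40 gene lists (rows, tested members in brackets), as black points for all libraries, crosses with the GC trend of each library removed, and grey bars for the range when each of the 6 libraries is left out in turn. Glycolysis and the stress response list stay below 0 under each of these. So do the immediate early, antioxidant, tricarboxylic acid cycle, alcohol metabolism and actin lists. Lists that stay above 0 include the mitochondrially encoded messages, Y-linked genes, histone genes, splicing factors and translation factors. Most other bars cross 0 or lie close to it.

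Several of the genes of smallest p had their difference set by 1 library. Fam227a, Faiml, Exd1, Bpgm and Atf7ip2 were higher without overlap, but a single 6% library held most of the counts. Faiml, related to an inhibitor of apoptosis, had 4.49, 5.27 and 11.7 CPM in controls and 13.4, 478 and 19.9 CPM at 6% ethanol. Bpgm, which makes 2,3-bisphosphoglycerate, had 0.816, 0.903 and 0 CPM in controls and 3.68, 0.955 and 152 CPM at 6% ethanol. Of the lower ones, Kmt2a, a histone H3 lysine 4 methyltransferase, had 167, 5.64 and 1.61 CPM in controls and 0.0847, 0 and 0 CPM at 6% ethanol, and Ppox, an enzyme of heme synthesis, had 1.47, 0.434 and 56.002 CPM in controls and 0.339, 0 and 0 CPM at 6% ethanol. Miip, an inhibitor of cell migration, had 19.1, 8.24 and 357 CPM in controls and 3.94, 5.73 and 6.72 CPM at 6% ethanol. Of the 7758 genes at 10 CPM or more, 179 (2.31%) had over 80% of their 6-library sum in a single library, which was 6% ethanol 2 for 65 of them, 6% ethanol 3 for 44 and 6% ethanol 1 for 7.

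Other genes of small p were more even within the groups. Spint1, a membrane inhibitor of serine proteases in epithelia, had 212, 303 and 503 CPM in controls and 157, 66.6 and 69.04 CPM at 6% ethanol (-1.80 ± 0.54 SE). Ccp110, a cap of the centriole, had 86.7, 13.6 and 74.9 CPM in controls and 7.49, 7.06 and 4.73 CPM at 6% ethanol (-3.18 ± 0.80 SE), and DESeq2 called it (adjusted p = 0.00918). Lcorl, a transcription factor linked to body size, had 12.002, 31.8 and 5.57 CPM in controls and 1.101, 1.91 and 0.771 CPM at 6% ethanol, and DESeq2 called it as well (0.0234). Ccp110 and Lcorl are GC-poor, at 42.5 and 36.6%, so they ran against the tendency of GC-poor transcripts to be high in 6% ethanol 2 and 3. Dck, which phosphorylates deoxycytidine, was higher with 21.8, 73.1 and 39.1 CPM in controls and 157, 283 and 117 CPM at 6% ethanol. Maea, a subunit of the CTLH ubiquitin ligase, had 36.9, 94.7 and 63.9 CPM in controls and 119, 347 and 177 CPM at 6% ethanol (1.72 ± 0.55 SE), and Lrrc42 had 32.5, 34.6 and 25.9 CPM in controls and 55.5, 132 and 96.1 CPM at 6% ethanol (1.61 ± 0.52 SE), both above the median GC content and both higher.

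The gene of smallest p was 4930562C15Rik, which has no described product and is named after its values were seen. It had 15.7, 13.8 and 6.45 CPM in controls and 0 counts in all 3 libraries of the 6% group, pooled at least 167-fold lower when 3 counts are taken as the limit. DESeq2 called it (adjusted p = 2.65e-06) and edgeR did not (0.799).

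Transcripts tied to sex differed between libraries. Of 9 Y-linked genes 6 were tested and 5 lay above 0, with a median of 1.87 or, with the GC trend removed, 1.22. Without overlap, 2 were higher and 1 lower (33.3 and 16.7%, against 3.35 and 4.72% of all tested genes). Xist, the RNA of the inactive X chromosome, had 299, 137 and 596 CPM in controls and 13.5, 690.1 and 1654 CPM at 6% ethanol, and 6% ethanol 1 was lowest by a wide margin. Eif2s3y, a Y-linked subunit of eIF2, had 2.53, 8.85 and 9.97 CPM in controls and 17.2, 49.5 and 28.96 CPM at 6% ethanol (2.16 ± 0.80 SE). Ddx3y, a Y-linked helicase, had 6.86, 27.7 and 38.3 CPM in controls and 31.5, 148 and 38.4 CPM at 6% ethanol, and 6% ethanol 1 lay within the controls. Uty, a Y-linked demethylase relative, ran the other way with 11.8, 1.55 and 4.84 CPM in controls and 0.762, 0 and 0 CPM at 6% ethanol. Uba1y, which has a near-identical X-linked copy, had 0 counts in controls and 12.5, 1.91 and 0.991 CPM at 6% ethanol, pooled at least 129-fold more at the same limit of 3 counts. Most of its counts were in 6% ethanol 1, and without that library the limit was 20.7-fold. Both Xist and Y-linked RNA were present in each library, and the share of male and female embryos behind each library was not tested.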

How the data were processed

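Total RNA of morulae was sequenced in 9 libraries, of which 6 are compared here. The deposited tables are raw gene counts, 1 table for each library. The submitters' processing notes name featureCounts, DESeq2 and GRCm39 with no role for each. RNA STAR is named as the aligner in 4 of the 9 tables, per the file headers. Versions, the annotation and the strand setting are not given in the sources used here, so genes with pseudogenes or near-identical copies (Gapdh, ribosomal proteins, Uba1y) and overlapping or antisense genes carry uncertain counts. All rows were genes. Of 53819 rows 12488 passed edgeR's filterByExpr (by group), and libraries were scaled with TMM. edgeR's quasi-likelihood fit used all 9 libraries in 3 groups, with Benjamini-Hochberg adjusted p under 0.05 as the threshold. Versions were 4.0.16 for edgeR, 1.42.0 for DESeq2, 3.58.1 for limma and 4.3.3 for R. The test was tried on simulated counts first.

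The comparison, the 44 gene lists and the rule for named genes were chosen with earlier results of these data known. Lists are described by counts and medians, with no test of a list. Named genes, predicted symbols left out, were the 15 higher and 15 lower of smallest p among genes without overlap at a mean of 10 CPM in a group, the 8 higher and 8 lower with the widest gap at 10 CPM in each library of the upper group, up to 4 members without overlap and the member of highest mean per list, and Xist and Y-linked genes. Other genes named, such as further members without overlap, markers and members that overlapped, were added after their values were seen. No gene of the 0-count rule, which asked for 5 CPM in each library of the other group, had a described symbol. Some genes that the rule names are not reported here.

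Transcript GC content came from GENCODE M21, matched by symbol for 97.5% of tested genes. Its build differs, so no coordinates were taken from it. The GC trend was removed as a loess of log2 CPM on GC content per library with a span of 0.5. Promoters were RefSeq's on GRCm38.p6. Pairs of libraries of a group gave a chi-square of 206 to 427 per degree of freedom, far above sampling noise. Library totals, 6263465 to 23553941, limit the precision of low genes, and limits for a count of 0 cover counting error only.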

Additional observations from a re-analysis of the deposited data

How the results depend on the processing

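edgeR called 0 genes with RLE scaling, on library size alone, with 10 CPM required in 3 libraries, with a robust fit, with header form as a term, with mitochondrial and rRNA-like genes left out, at an adjusted p under 0.1, with only the compared libraries, and without each of the 9 libraries in turn. It called 140 with no expression filter (of 26610 genes) and 48 in the short-header libraries alone (of 14316). DESeq2 called 31. Removing the GC trend, an alternative chosen after seeing the data, gave 0 calls. At an unadjusted p under 0.05 the higher genes, 399, became 188 on library size alone, 885 with no filter and 228 (of 11331) with only the compared libraries. The lower genes, 380, became 968 with no filter, 237 (of 7534) with the 10 CPM filter, 598 by DESeq2, 230 with only the compared libraries, 613 with header form as a term and 655 in short-header libraries. Genes without overlap, 3.35% of those tested higher and 4.72% lower, became 1.72% higher on library size alone, 3.54% and 4.53% (267 and 341 genes) with the 10 CPM filter, and 14.6% and 19.7% (2085 and 2818 genes) in short-header libraries, where 2 libraries stand against 2. Without each library in turn the ranges were 228 to 763 higher and 317 to 1305 lower at an unadjusted p under 0.05, and 3.14% to 11.8% higher and 4.77% to 16.9% lower without overlap (428 to 1607 and 656 to 2310 genes). Leaving out a compared library makes separation easier, because fewer libraries have to separate. The upper ends of all 4 ranges came without 6% ethanol replicate 1, and the 228 without control replicate 1.

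Of 132 genes followed through up to 21 alternatives, 1 of 2749 values changed sign, that of Btg2, which ran from -1.88 without 6% ethanol replicate 1 to 0.48 without control replicate 2. Most of these genes were named because their groups did not overlap. Leaving out 1 library could hardly change their sign, so the count of sign changes does not measure stability. The threshold was passed by 40 values, 18 with no filter, 14 by DESeq2 and 8 in short-header libraries. Of 921 medians over the 44 lists, 41 moved by more than the spread between replicates. No paired analysis was possible because the labels carry no shared number, and the order of accessions pairs nothing. Genes under about 10 counts in a library are limited by depth.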
